A study of Mus musculus with 18 samples.

Results

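The subunits of the oxidative phosphorylation machinery were followed in extraocular muscle, leg muscle and heart of dystrophic mice. Members were all probe sets with a single gene symbol that began with Nduf, Uqcr, Atp5 or Cox4 to Cox8, or that was Sdha, Sdhb, Sdhc, Sdhd, Cyc1 or Cycs. The rule found 101 probe sets for 73 genes among 12422 probe sets for 8251 genes. The 18 arrays fell into 6 groups of 3, one for each tissue in mdx mice, which the labels name as the control, and one for each tissue in dko mice. Tissues were taken at 8 weeks of age. The mdx strain lacks dystrophin, and dko is the usual name for mice that lack dystrophin and its relative utrophin, although the labels do not spell the name out. Dystrophin deficiency was therefore shared by all 6 groups, and no wild-type tissue was part of the comparison. Each value was the intensity of a probe set on an Affymetrix oligonucleotide array hybridised with total RNA from a whole tissue, and the sources used here do not say whether an array held 1 animal or a pool.

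Oxidative phosphorylation takes place at the inner mitochondrial membrane. Complex I (the Nduf genes) and complex II (the Sdh genes) take electrons from NADH and succinate, complex III (the Uqcr genes and Cyc1) passes them to the mobile carrier cytochrome c (Cycs), and complex IV (the Cox genes) delivers them to oxygen. The proton gradient that builds up drives ATP synthesis by complex V (the Atp5 genes). Several complex IV subunits exist as paired forms, one found in heart and skeletal muscle (Cox6a2, Cox7a1, Cox8b) and one found more widely (Cox6a1, Cox7a2, Cox8a). Heart and extraocular muscle work continuously and are rich in mitochondria, whereas leg muscle holds many glycolytic fibres.

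The members comprised 29 genes of complex I, 2 complex I assembly factors that carry Nduf names (Ndufaf1 and Ndufaf4), 4 of complex II, 8 of complex III, 15 of complex IV, 14 of complex V and cytochrome c itself. They were bright: 61 of the 101 probe sets ranked above the 90th percentile of the mean intensity over all arrays. A filter on dim probe sets left 85 probe sets for 70 genes among 8888 tested, so that Ndufa12, Cox5a and Cox8a had no tested probe set. The heart marker genes fitted the labels, since 9 of 11 were higher in heart than in leg muscle in mdx as well as in dko mice. The list of extraocular markers, with 2 genes on the array, did not mark the extraocular samples. Its sums were 1106 to 2224 in mdx extraocular muscle and 1160 to 1904 in the mdx leg, with overlap. In dko mice they were 1436 to 1528 in extraocular muscle and higher, 2082 to 3280, in the leg. A change in a whole tissue cannot tell fewer cells of a type from less RNA per cell.

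The arrays numbered 3 stood apart from those numbered 1 and 2 for these genes in every group. The median intensity over the 70 tested genes was 20354 to 33340 on the 6 arrays numbered 3 and 13183 to 19134 on the other 12. Relative to the mean of its group, the median member deviated by 0.16 to 0.54 log2 units on the arrays numbered 3 and by -0.31 to 0.03 on the others. Over all tested probe sets the same deviations were -0.07 to -0.04 and 0.01 to 0.05. The brightest probe set reached 47024 to 74434 on the arrays numbered 3 and 33355 to 47589 on the others. The labels do not say what the number stands for, so each comparison was also fitted with the number as a block and without the arrays numbered 3.

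**Figure D1:**
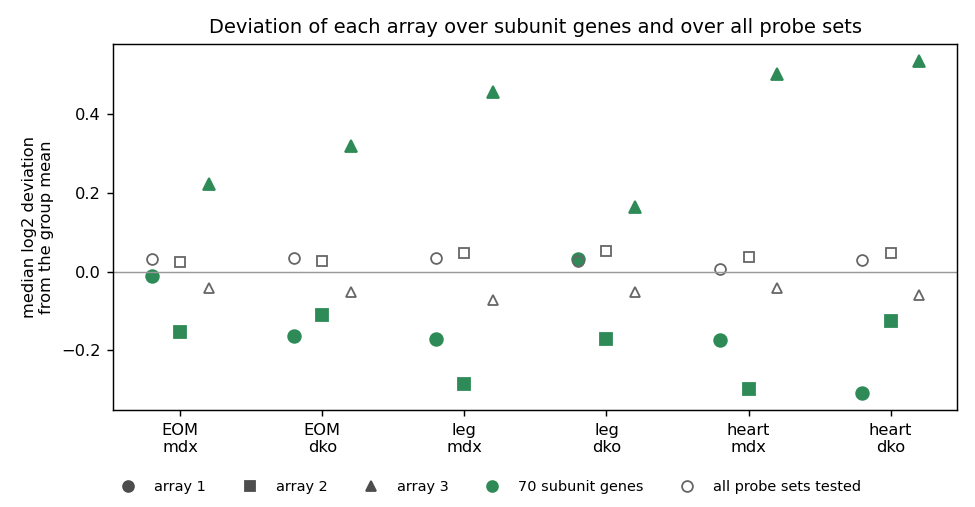
Median log2 deviation from the group mean (vertical axis) over the 70 tested subunit genes (filled symbols) and over all 8888 tested probe sets (open symbols), for each array of the 6 tissue and genotype groups (EOM, extraocular muscle). In every group the filled triangle of array 3 lies highest, from 0.16 in dko leg muscle to 0.54 in dko heart.

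The comparison of dko with mdx mice within each tissue asked whether the additional loss in dko mice altered these transcripts. No member was called different in any of the 3 tissues, in their average or in the differences between tissues (limma, Benjamini-Hochberg adjusted p under 0.05), with or without the array number as a block. Over all probe sets the same test called 0.0225% in extraocular muscle, 0.0563% in leg muscle, 0% in heart and 0.09% in the average of the 3 tissues. With the block these shares were 0.158%, 1.2%, 0% and 0.788%. At an unadjusted p under 0.05, 1 of 85 member probe sets passed in extraocular muscle, 6 in leg muscle and 0 in heart, where 2.21%, 6.26% and 1.46% of all probe sets did. With the block 2, 16 and 2 members passed, and 8.07%, 17.8% and 5.56% of all. The members' shares in leg muscle, 7.06% and 18.8%, were close to those of all probe sets, and in the other tissues they were lower.

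In leg muscle the members lay on the lower side in dko mice, although none passed the test. The median log2 difference of dko from mdx over 70 genes was -0.11, and 77.1% of the genes were negative, against a median of -0.04 and 55.3% for all tested probe sets. By complex the median was -0.13 for complex I (24 of 28 genes negative), -0.33 for complex II (3 of 4), -0.11 for complex III (6 of 8), -0.07 for complex IV (11 of 13) and -0.01 for complex V (7 of 14). This direction rested on the arrays numbered 3. Without them the median was 0.03 and 42.9% of the genes were negative, and without mdx leg array 3 alone it was 0.08. In extraocular muscle the median was -0.0038 and in heart -0.02. Every array of the dko leg was below every mdx leg array for 7 of 85 member probe sets, and 4.93% of all tested probe sets met the same condition. The reverse order held for 0 members and 5.02% of all.

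**Figure D2:**
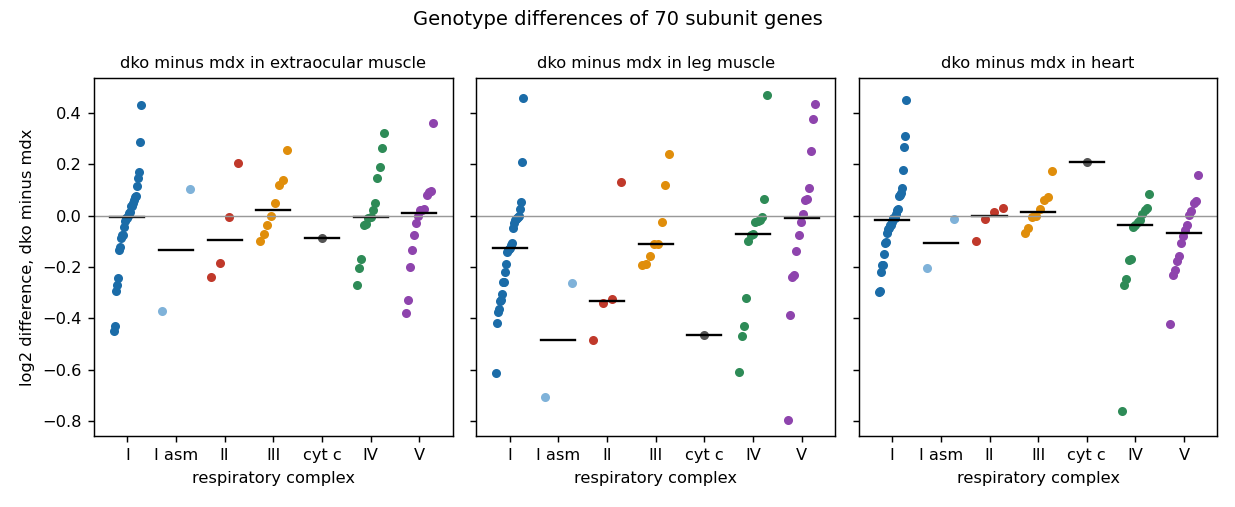
Log2 difference of dko from mdx (vertical axis) for each of the 70 tested subunit genes, by respiratory complex (I asm, complex I assembly factors; cyt c, cytochrome c), in extraocular muscle, leg muscle and heart; black lines are medians. In leg muscle the medians lie at or below 0, from -0.01 for complex V to -0.49 for the 2 assembly factors, and no gene passed the test in any panel.

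Cox7a1, the heart and muscle form of a small complex IV subunit, came nearest to a call. Its intensity was 17613, 18667 and 15841 in the mdx leg arrays and 12096, 10598 and 11295 in the dko leg arrays. In extraocular muscle it was 14987, 16709.6 and 14280.4 in mdx and 14220.2, 12933 and 11027 in dko mice. In heart it was 25324, 30224 and 24018 in mdx and 18608, 26699.9 and 21048 in dko mice. All 9 same-numbered pairs were lower in dko, and the groups did not overlap in leg or extraocular muscle but did in heart. The log2 difference in leg muscle was -0.61 ± 0.18 (SE) with an adjusted p of 0.366, and 0.0581 with the block. Averaged over the 3 tissues it was -0.38 ± 0.10 (SE), a fold of 1.3 on the scale with the added constant, with an adjusted p of 0.311 and 0.0515 with the block. The differences in extraocular muscle and heart were -0.27 and -0.27.

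Ndufaf4, an assembly factor of complex I, read 1774, 1720.3 and 1488 in the mdx leg and 866, 1067 and 928 in the dko leg, with every dko array below every mdx array. The log2 difference was -0.71 ± 0.22 (SE) (adjusted p = 0.421, 0.0706 with the block). Sdha, the flavoprotein subunit of complex II that oxidises succinate, read 7764, 9361 and 6997 in the mdx leg and 6321, 5505 and 5188 in the dko leg. These groups did not overlap either, at a log2 difference of -0.49 ± 0.17 (SE) (adjusted p = 0.52, 0.095 with the block). Ndufa10, an accessory subunit of the membrane arm of complex I, differed by -0.61 ± 0.22 (SE) in leg muscle with overlapping groups, because dko leg array 1 read as high as an mdx array. Cytochrome c differed by -0.47 ± 0.28 (SE) and was lower in 3 of 3 pairs (adjusted p = 0.999, 0.0974 with the block). On the other side, Cox6a1 differed by 0.47 ± 0.21 (SE) and was higher in 3 of 3 pairs (adjusted p = 0.76, 0.139 with the block).

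In extraocular muscle the members with the smallest p were Ndufs4, Ndufa10 and Ndufaf4. Ndufs4, an accessory subunit near the NADH-oxidising end of complex I, read 1158, 1010 and 1067 in mdx and 872, 604 and 777 in dko mice. The dko arrays lay below the mdx arrays without overlap, and the log2 difference was -0.45 ± 0.19 (SE) (adjusted p = 1, 0.456 with the block). Ndufa10 differed by -0.43 ± 0.22 (SE) and Ndufaf4 by -0.37 ± 0.22 (SE), also without overlap. All dko arrays were below all mdx arrays for 6 of 85 member probe sets, against 2.66% of all tested, and above them for 0 members, against 2.99% of all.

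In heart the 3 members with the smallest p were Cox7a1, Ndufa2 and Ndufs4. Ndufa2, a small accessory subunit of complex I, read 4736, 6852 and 9134 in mdx and 5849, 8452 and 15588 in dko hearts, higher in 3 of 3 pairs but with overlapping groups. Its log2 difference was 0.45 ± 0.34 (SE) with an interval of -0.26 to 1.16, and that of Ndufs4 was -0.22 ± 0.19 (SE). No member separated the dko from the mdx hearts in either direction, whereas 2.16% of all probe sets lay wholly below and 1.76% wholly above.

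Whether the genotype difference itself differed between tissues was tested on the same arrays, and no member was called (0% of all probe sets for each of the 3 pairs of tissues). With the block, 0.0338% of all probe sets were called for extraocular against leg muscle, 0.0675% for heart against leg muscle and 0% for extraocular muscle against heart, and again no member. The members with the smallest p for heart against leg were Ndufa10 at 0.72 ± 0.30 (SE) and Sdha at 0.51 ± 0.24 (SE). With a standard error of 0.35 log2 units for the median member in a comparison within a tissue, and 0.17 with the block, a change of the size seen for most members was not detectable with 3 arrays a group.

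Slow fibre markers in leg muscle and macrophage markers in leg and extraocular muscle had higher median sums in dko mice. Slow fibre markers summed to 27898 to 39179 in the mdx leg and 101468 to 145919 in the dko leg, and 1 of 9 was called, or 7 of 9 with the block. The slow myosin heavy chain Myh7 differed by 4.40 log2 units. Slow fibre sums overlapped in extraocular muscle (113535 to 220312 in mdx, 110230 to 261667 in dko) and in heart (60780 to 205459 and 77905 to 150049). Fast fibre sums overlapped in leg muscle (83343 to 454905 in mdx, 144826 to 303966 in dko) and in extraocular muscle. In heart the fast fibre sums were 9516 to 13215 in mdx and 6967 to 9281 in dko mice, without overlap. Macrophage markers summed to 36971 to 70099 in the mdx leg and 69179 to 134981 in the dko leg, with overlapping ranges and 0 of 16 called, or 4 with the block. In extraocular muscle they summed to 26544 to 33311 in mdx and 60960 to 64959 in dko mice, without overlap, and 1 of 16 was called, or 3 with the block. In heart the sums were 36521 to 40629 and 36216 to 41811, with 0 called either way. Over all probe sets 0.0563% were called in leg muscle, 0.0225% in extraocular muscle and 0% in heart. With the block these shares were 1.2%, 0.158% and 0%. Brown fat markers summed to 1951.5 to 2361.7 in the mdx leg and 2422.3 to 2748 in the dko leg, without overlap. Skin and mucosal epithelium markers summed to 3821.5 to 4405.4 in mdx and 2367.5 to 2753.6 in dko extraocular muscle, without overlap. Both lists overlapped between genotypes in the other tissues. Fibroblast and matrix sums overlapped in leg muscle (102183 to 219691 in mdx, 163556 to 233880 in dko). No marker of these lists was at 0 on every array. The part of these shifts in the leg and extraocular values of the respiratory genes was not tested.

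The clearest differences among the members lay between tissues, and heart against leg muscle held the most. In mdx mice 3 of 85 member probe sets were higher in heart (5.04% of all tested) and 0 were lower (4.93% of all). In dko mice 5 were higher (5.16% of all) and 0 were lower (5.54% of all). With the block the counts were 8 higher and 2 lower in mdx mice (11.7% and 11.1% of all), and 25 higher and 2 lower in dko mice (12% and 11.5% of all). The median log2 difference over 70 genes was 0.14 in mdx and 0.21 in dko mice, against -0.0017 and 0.02 for all tested probe sets. Without the arrays numbered 3 these medians were 0.09 and 0.04, and the blocked counts fell to 4 higher and 3 lower in mdx mice and to 5 higher and 3 lower in dko mice. Leaving out any 1 array gave 1 to 2 calls in mdx and 3 to 6 in dko mice, and 5 to 9 and 12 to 24 with the block. The blocked mdx count was lowest without leg array 1 and the dko count without leg array 2. As shares of the 85, the higher calls were 3.53% in mdx and 5.88% in dko mice without the block and 9.41% in mdx mice with it, each within a few percentage points of all probe sets. The blocked dko share was 29.4%, above that of all probe sets. The lower calls, at 0% without the block and 2.35% with it in each genotype, were below the shares of all probe sets. Of the 27 dko calls with the block, 9 held with every array left out in turn and 7 held without the arrays numbered 3, and of the 10 mdx calls 4 and 5 did. The ratio of the 3′ to the 5′ control probe set of Gapdh, a sign of RNA quality, was 0.144 to 0.264 in the dko leg and 0.401 to 0.770 in the dko heart, without overlap, and 0.248 to 0.879 and 0.463 to 0.866 in mdx mice, with overlap. The same ratio for beta-actin was 0.0442 to 1.05 in the dko leg and 0.542 to 1.00 in the dko heart, with overlap. In mdx mice it was 0.444 to 1.02 in the leg and 0.628 to 1.05 in the heart, also with overlap. Dko leg array 2 had the lowest actin ratio of all arrays. The part of RNA quality in the heart and leg values was not tested. Endothelium markers summed to 27849.8 to 43549.1 in the mdx heart and 14252.2 to 16280.4 in the mdx leg. Brown fat markers summed to 3628.7 to 5511.1 and 1951.5 to 2361.7. Neither list overlapped, in mdx or in dko mice. Adipocyte and brown fat sums were likewise higher in extraocular than in leg muscle. In the dko heart macrophage and matrix sums lay below those of the leg. The part of these cell types was not tested either.

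All 8 members called higher in the heart of mdx mice with the block were also among the 25 called in dko mice. They were Cox6a1, Cox7a1 and Cox7a2l of complex IV, Ndufb6, Ndufb7, Ndufs1 and Ndufv3 of complex I, and Sdha of complex II. They made up 32% of the 25. The 2 genotypes share no array in this comparison, but they share the estimate of the spread. Deviations of same-numbered mdx and dko arrays also correlated, at 0.415 to 0.751 in leg and heart. The 2 sets of calls are therefore not independent. The larger dko count is not a shown difference between genotypes, because the test of that difference called no member.

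**Figure D3:**
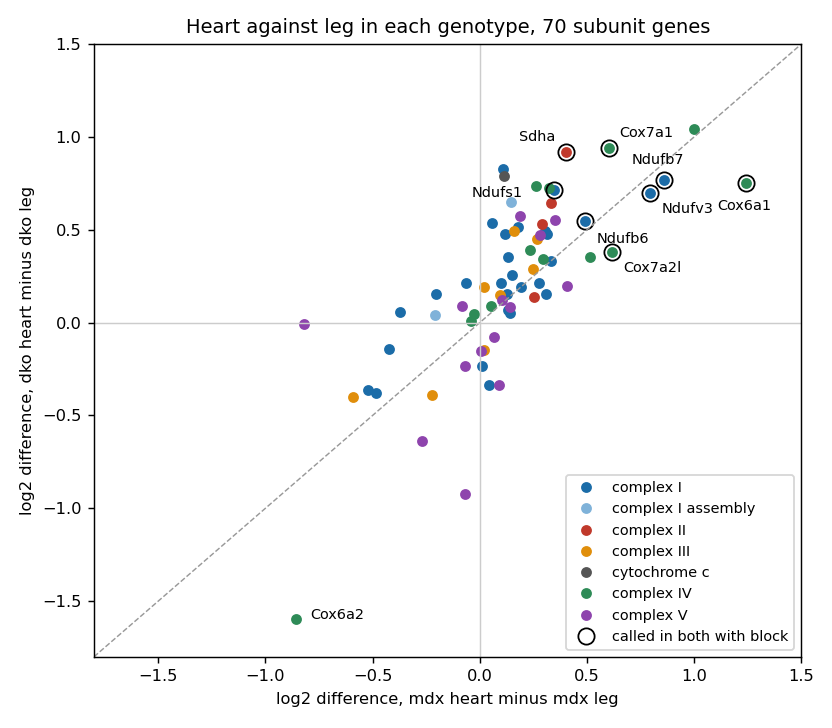
Log2 difference of heart from leg muscle in mdx (horizontal axis) and dko mice (vertical axis) for the 70 tested subunit genes, coloured by complex; rings mark the 8 genes called in both genotypes with the block and the dashed line marks equal differences. The ringed genes lie between 0.35 and 1.24 in mdx and between 0.38 and 0.94 in dko mice, and Cox6a2 lies lowest in both.

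Cox6a1, the widely expressed form of a regulatory complex IV subunit, was the member that separated leg muscle most clearly. It read 9266, 6835 and 11867 in the mdx leg and 11491, 12610.1 and 14041 in the dko leg. In heart it read 21042, 19561 and 24896 in mdx and 18311, 21139.7 and 25455 in dko mice. In extraocular muscle it read 16259, 17179 and 19227 in mdx and 15181, 17710 and 19588 in dko mice. All leg arrays lay below all heart and extraocular arrays of the same genotype. The heart exceeded the leg by 1.24 ± 0.21 (SE) log2 units in mdx mice (adjusted p = 0.000835), a fold of 2.36, and by 0.75 ± 0.21 (SE) in dko mice (adjusted p = 0.0301). Extraocular muscle exceeded the leg by 0.93 ± 0.21 (SE) in mdx mice (adjusted p = 0.0195, 0.00067 with the block), where it was the 1 member called of 85 (2.57% of all probe sets were called higher and 1.45% lower). In dko mice Cox6a1 was not called for extraocular against leg muscle, with or without the block. The mdx heart call held with each of 6 arrays left out. The dko heart call was lost without leg array 1 or 2 or heart array 2 or 3 (lowest difference 0.63), and the mdx extraocular call without extraocular array 2 or 3 or leg array 1 or 2 (lowest difference 0.73). With the block all of these calls held with any 1 array left out. The f suffix of this probe set marks probes shared with related sequences, so near-identical copies may contribute. The same limit holds for the 20 member probe sets with an f suffix. Among them are the called probe sets of Atp5g2, Ndufa3 and Cox6b2. The brighter one of Cox4i1 and the dimmer ones of Ndufv2 and Ndufaf1 are others.

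Cox7a1 was highest in heart. With the values given above, all heart arrays exceeded all leg and extraocular arrays of the same genotype. The difference of heart from leg was 0.60 ± 0.18 (SE) in mdx (adjusted p = 0.045) and 0.94 ± 0.18 (SE) in dko mice (adjusted p = 0.00214). Extraocular muscle was below heart by -0.78 ± 0.18 (SE) in mdx (adjusted p = 0.0125) and -0.78 ± 0.18 (SE) in dko mice (adjusted p = 0.0115). The mdx call against leg was lost with any 1 of the 6 arrays left out (0.50 to 0.67), and the dko call with none of them (0.80 to 1.06). The calls against extraocular muscle were lost without extraocular array 3 or heart array 2 in each genotype, at -0.68 to -0.85 in mdx and -0.64 to -0.90 in dko mice. With the block these 4 calls held with any 1 array left out. Without the arrays numbered 3 the blocked adjusted p rose to 0.0751 for the mdx heart against leg and to 0.0546 for dko extraocular muscle against heart.

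Cox7a2l, a relative of Cox7a2 that joins complexes III and IV into supercomplexes, read 6966, 6783 and 5854 in the mdx leg and 6691, 7104 and 6696 in the dko leg. In heart it read 11643, 10236 and 8618 in mdx and 9158, 8866 and 8750.4 in dko mice. In extraocular muscle it read 7802, 7509 and 6121 in mdx and 6838, 6641 and 5519 in dko mice. Heart stood above both other tissues without overlap in each genotype. The difference of heart from leg was 0.62 ± 0.17 (SE) in mdx mice (adjusted p = 0.0283). In dko mice it was 0.38 ± 0.17 (SE) and was called only with the block (adjusted p = 0.209, 0.0314 with the block). The unblocked mdx call was lost on leaving out any of 5 of the 6 arrays, heart array 3 being the exception (0.52 to 0.73), while with the block it held in all 6. The dko call with the block held with 1 of the 6 arrays left out and its adjusted p reached 0.129 otherwise.

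**Figure D4:**
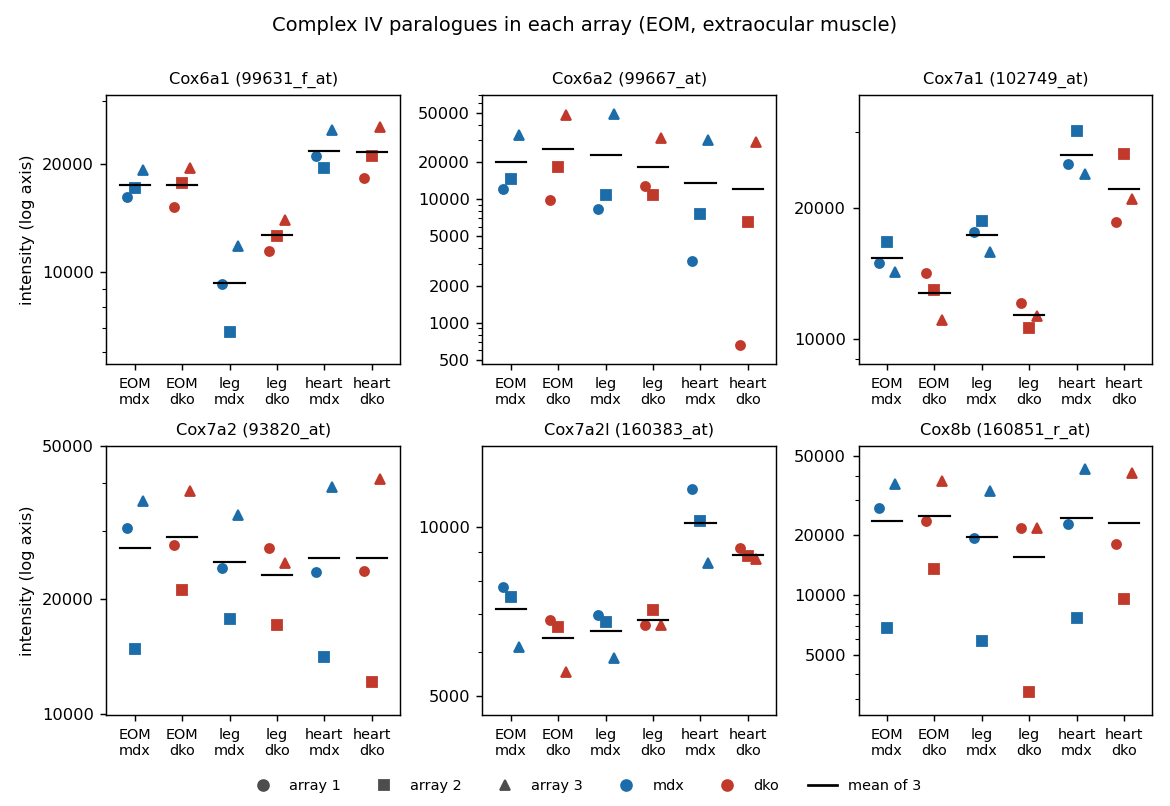
Intensity on a logarithmic axis of 6 complex IV probe sets on each array of the 6 tissue and genotype groups (EOM, extraocular muscle); symbols give the array number, colours the genotype and lines the mean of 3 arrays. Cox6a1, Cox7a1 and Cox7a2l separate heart from leg muscle, whereas Cox6a2, Cox7a2 and Cox8b spread widely within each group, with array 3 highest in every group but the dko leg for Cox7a2 and Cox8b.

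These 3 genes are the complex IV members among the 8 called higher in heart than in leg in both genotypes with the block. The sequences before their start sites are shown. They are the 250 bases upstream of the start in RefSeq (GRCm38.p6), 5′ to 3′ on the gene's strand, at chr5:115348959-115349208 on the minus strand for Cox6a1, chr7:30183921-30184170 on the plus strand for Cox7a1 and chr17:83514334-83514583 on the minus strand for Cox7a2l. Capitals mark matches on either strand to the E-box CANNTG bound by myogenic factors, the ETS-type motif CCGGAAG and the NRF-1-type core GCGCANG.
Cox6a1: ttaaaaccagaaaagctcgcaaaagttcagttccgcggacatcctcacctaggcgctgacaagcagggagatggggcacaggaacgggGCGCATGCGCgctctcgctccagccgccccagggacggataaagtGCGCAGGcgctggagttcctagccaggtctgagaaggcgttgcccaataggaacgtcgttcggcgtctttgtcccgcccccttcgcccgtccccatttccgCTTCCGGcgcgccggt
Cox7a1: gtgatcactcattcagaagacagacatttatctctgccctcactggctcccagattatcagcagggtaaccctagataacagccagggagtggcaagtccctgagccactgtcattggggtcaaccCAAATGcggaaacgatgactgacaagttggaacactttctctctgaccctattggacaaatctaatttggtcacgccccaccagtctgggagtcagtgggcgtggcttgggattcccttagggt
Cox7a2l: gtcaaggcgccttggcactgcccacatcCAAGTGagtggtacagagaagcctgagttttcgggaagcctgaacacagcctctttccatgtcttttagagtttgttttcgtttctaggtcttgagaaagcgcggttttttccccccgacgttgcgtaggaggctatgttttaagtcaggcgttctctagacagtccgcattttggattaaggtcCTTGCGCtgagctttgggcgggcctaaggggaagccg
The Cox6a1 window held 1 ETS-type match and 3 NRF-1-type matches, of which those on opposite strands of the run GCGCATGCGC overlap. The Cox7a1 window held 1 E-box, and the Cox7a2l window held 1 E-box and 1 NRF-1-type match. Among all 32851 promoter windows of this length, 66.2% held the E-box, 6.91% the ETS-type and 13.9% the NRF-1-type letters. Among 64 windows of the 59 member genes matched by symbol the shares were 60.9%, 18.8% and 34.4%. A match is a string of letters and does not show that a factor binds.

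The muscle form Cox6a2 had the widest spread of the paralogues. It read 8363, 10899 and 49559 in the mdx leg and 12836, 10754 and 31589 in the dko leg. In heart it read 3179.7, 7632 and 30146 in mdx and 661, 6535 and 29178 in dko mice. In extraocular muscle it read 12136, 14538 and 33505 in mdx and 9957, 18374 and 47974 in dko mice. Array 3 was the highest of its group in all 6 groups, so that tissues overlapped although heart was the lowest tissue among arrays of the same number. The difference of heart from leg was -0.86 ± 1.09 (SE) in mdx mice. In dko mice it was -1.60 ± 0.53 (SE with the block) and was called only with the block (adjusted p = 0.489, 0.0437 with the block). That call was lost with 3 of the 6 arrays left out, up to an adjusted p of 0.207, and dko heart array 1 read far below every other array. Dko extraocular muscle exceeded heart by 1.93 ± 0.53, likewise called only with the block (adjusted p = 0.0207) and with 3 of 6 arrays left out.

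The other paired forms did not separate the tissues by the unblocked test. Cox7a2, the widely expressed partner of Cox7a1, differed between heart and leg by -0.04 ± 0.46 (SE) in mdx and 0.01 ± 0.46 (SE) in dko mice, and between extraocular muscle and leg by 0.07 ± 0.46 (SE) and 0.32 ± 0.46 (SE). Cox8b, the muscle form of the smallest complex IV subunit, had 2 tested probe sets. One read 21739.5, 3236 and 21737 in the dko leg and 23566, 13565 and 37660.4 in dko extraocular muscle, a difference of 0.97 ± 0.28 that was called with the block (adjusted p = 0.0486), where 4.04% of all probe sets were called higher and 3.54% lower. That call held with 1 of 6 arrays left out, leg array 1. The other probe set of Cox8b differed there by 0.48 ± 0.46 (SE) and was not called. It was higher in the dko heart than in leg by 0.60 ± 0.18 (SE) with the block (adjusted p = 0.0286). This heart call held with 3 of 6 arrays left out and was lost without the arrays numbered 3 (adjusted p = 0.159). No member was called by the unblocked test for dko extraocular against leg muscle (1.43% of all higher, 0.709% lower). There 1 of 85 members (1.18%) and 10.4% of all probe sets had an unadjusted p under 0.05. The partner form Cox8a was among the dim probe sets that were not tested.

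Cox4i1, the largest subunit of complex IV encoded in the nucleus, also had a pair of tested probe sets, which were called in different comparisons. The brighter one exceeded leg in dko heart by 0.74 ± 0.15 (SE). It fell below heart in extraocular muscle by -0.56 in mdx and -0.57 in dko mice. All of these were called with the block alone (adjusted p = 0.00239, 0.0186 and 0.0159). In this order they held with 6, 2 and 4 of 6 arrays left out. All were lost without the arrays numbered 3 (adjusted p = 0.0737, 0.163 and 0.124). The dimmer one was lower in mdx extraocular than in leg muscle by -0.58 ± 0.17 (adjusted p = 0.0379 with the block), where the brighter one differed by -0.30 ± 0.35 (SE). That call of the dimmer one held with 1 of 6 arrays left out (adjusted p up to 0.174) and was lost without the arrays numbered 3 (0.0645). Cox6b2, known as a testis form, differed between dko heart and leg by 1.04 ± 0.36 on 1 probe set, with an adjusted p of 0.0481 with the block. That call held with 1 of 6 arrays left out.

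Sdha was the complex II subunit with the firmest tissue difference. With the leg values above, it read 11139, 11072 and 9697 in the mdx heart and 10918, 11018 and 10559 in the dko heart, and 8478, 8652 and 7721 and 7636, 7509 and 5915 in extraocular muscle. Hearts of the 2 genotypes overlapped, and dko hearts lay above every dko leg and extraocular array. The dko heart exceeded the leg by 0.92 ± 0.17 (SE) log2 units (adjusted p = 0.00155), a fold of 1.89, and this call held with each of 6 arrays left out (0.86 to 1.00). In mdx mice the difference was 0.40 ± 0.17 (SE) and was called only with the block (adjusted p = 0.176, 0.0251 with the block), where it held with 1 of 6 arrays left out. Dko extraocular muscle was below heart by -0.62 ± 0.17 (SE) (adjusted p = 0.0322), which was lost on leaving out any 1 array (-0.51 to -0.69) but held in all 6 with the block. Sdhb, the iron-sulfur subunit, was higher in the dko heart than in leg by 0.65 ± 0.16 with the block alone (adjusted p = 0.00826). The anchors Sdhc and Sdhd differed there by 0.14 and 0.53 and were not called. The Sdhb call held with each of 6 arrays left out but was lost without the arrays numbered 3 (adjusted p = 0.143 with the block). All 4 complex II genes were positive for heart against leg in each genotype, with medians of 0.31 in mdx and 0.59 in dko mice.

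In complex I, Ndufs1 and Ndufa10 rose from leg to heart in dko mice. Ndufs1, the large iron-sulfur subunit of the NADH-oxidising arm, read 14108, 16682 and 16938 in the dko leg and 22034, 25922 and 31200.2 in the dko heart, without overlap. The mdx leg read 18851, 21831 and 23236 and the mdx heart 24588, 26426 and 30433, also without overlap. The difference was 0.71 ± 0.18 (SE) in dko mice (adjusted p = 0.0144) and 0.35 ± 0.18 (SE) in mdx mice, where it was called only with the block (adjusted p = 0.303, 0.0406 with the block). The dko call was lost without leg array 1 or heart array 3 (lowest difference 0.59), and the blocked mdx call with any 1 array left out. Ndufa10 read 2148, 1328 and 1302 in the dko leg and 2765, 3237 and 2679.8 in the dko heart, a difference of 0.83 ± 0.22 (SE) (adjusted p = 0.0189). In mdx mice, where the leg read 2148, 2494 and 2797 and the heart 2682, 2268 and 3119 and the groups overlapped, it was 0.11 ± 0.22 (SE) (adjusted p = 0.896). The dko call was lost without leg array 2 or 3 or heart array 2 (lowest difference 0.71). Dko extraocular muscle was below heart for Ndufa10 by -0.74 ± 0.22 (SE) (adjusted p = 0.0464), a call that was lost with any 1 array left out (-0.61 to -0.83).

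**Figure D5:**
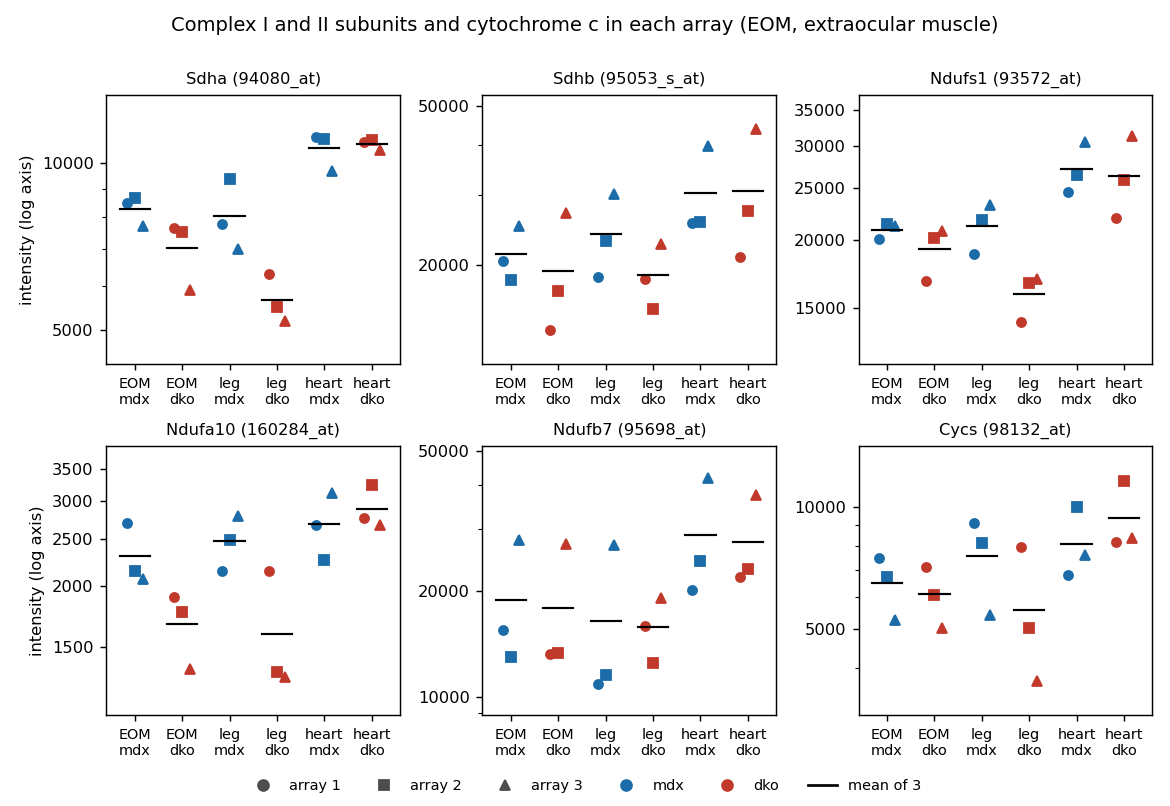
Intensity on a logarithmic axis of Sdha, Sdhb, Ndufs1, Ndufa10, Ndufb7 and Cycs on each array of the 6 tissue and genotype groups (EOM, extraocular muscle); symbols give the array number, colours the genotype and lines the mean of 3 arrays. Sdha and Ndufs1 are higher in every heart array than in every leg array of the same genotype, and the Cycs leg and heart arrays separate in dko mice only.

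A further 3 genes of complex I were called in both genotypes with the block, each an accessory subunit. Ndufb7, on the outer face of the membrane arm, read 10899, 11545 and 27043 in the mdx leg and 20149, 24379 and 42001 in the mdx heart, and 15930.1, 12469.8 and 19178 and 21985, 23107 and 37492 in dko mice. Each heart array exceeded the leg array of its number, and the groups overlapped in mdx but not in dko mice. The differences were 0.86 ± 0.17 (SE) in mdx (adjusted p = 0.00199 with the block) and 0.77 ± 0.17 (SE) in dko mice (adjusted p = 0.00411 with the block), against 0.258 and 0.331 without it. Both held with any 1 array left out. Ndufv3 differed by 0.80 ± 0.20 (SE) in mdx and 0.70 ± 0.20 (SE) in dko mice and Ndufb6 by 0.49 ± 0.17 (SE) and 0.55 ± 0.17 (SE), with overlapping groups. Their blocked calls held with 1 to 4 of 6 arrays left out. Ndufs4 went the other way, reading 1086, 1253 and 971 in the mdx leg and 684, 720.1 and 744 in the mdx heart without overlap, a difference of -0.52 ± 0.17 (SE) with the block (adjusted p = 0.0378, 0.1 without it). That call held with 1 of 6 arrays left out.

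Across complex I, 10 of 28 genes, each by its brightest probe set, were called higher in the dko heart than in leg with the block, and 0 lower, against 12.8% and 12.1% of all 6551 genes tested. Beside those named they were Ndufa3, Ndufa5, Ndufa8, Ndufa9 and Ndufb8, and a dimmer probe set of Ndufv2 was called as well, at log2 differences of 0.47 to 0.54. None of them reached the threshold without the block, and without the arrays numbered 3 their blocked adjusted p ran from 0.0978 to 0.332. The assembly factor Ndufaf4 was also higher in the dko heart with the block, at 0.65 ± 0.18 (adjusted p = 0.0175). That call held with 2 of 6 arrays left out and was lost without the arrays numbered 3 (adjusted p = 0.0908). Ndufaf1, another assembly factor, read 3188, 3132 and 3480.2 in mdx extraocular muscle and 4282, 5254 and 4796 in the mdx leg without overlap. It was lower in extraocular muscle by -0.52 ± 0.13 with the block (adjusted p = 0.0167), a call lost without extraocular array 2 or leg array 2 at an adjusted p of up to 0.0845. A dimmer Ndufaf1 probe set differed there by -0.41 ± 0.45 (SE). It was lower in mdx extraocular muscle than in heart by -1.08 ± 0.28 with the block (adjusted p = 0.0157). It read 59, 21.1 and 494.6 in mdx extraocular muscle and 431.6, 414.3 and 601.9 in the mdx heart, with overlapping groups. Extraocular arrays 1 and 2 thus read below the constant added before taking log2. That heart call held with 2 of 6 arrays left out (adjusted p up to 0.0886).

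In complex III 2 of 8 genes (25%) were called higher in the dko heart than in leg with the block, beside the 12.8% of all genes given above. In the dko heart Uqcrh, the hinge subunit, and Uqcr11, a small accessory subunit, exceeded leg by 0.49 ± 0.17 (SE) and 0.45 ± 0.15 (SE) with the block (adjusted p = 0.0443 and 0.0374). The Uqcrh call held with 0 of 6 arrays left out and the Uqcr11 call with 1 of 6, and both were lost with scaling to the 75th percentile (adjusted p = 0.0568 and 0.0512 with the block) and without the arrays numbered 3 (0.160 and 0.229). No other gene of the 8 was called in any of the 6 tissue comparisons. Cytochrome c read 7946, 5011 and 3713 in the dko leg and 8181, 11613 and 8394 in the dko heart, without overlap. It read 9146, 8122 and 5407 in the mdx leg and 6785, 9968 and 7588 in the mdx heart, which overlapped. The dko difference was 0.79 ± 0.28 (SE) (adjusted p = 0.0944, 0.0141 with the block), and the mdx difference was 0.11 ± 0.28 (SE) (adjusted p = 0.925). The blocked dko call held with 2 of 6 arrays left out.

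Complex V held members that were lower in heart or extraocular muscle. Atp5g1, which encodes the ring subunit through which protons pass, read 2521, 1424 and 1412 in the mdx leg, 896, 558 and 712 in mdx extraocular muscle and 1353, 573 and 923 in the mdx heart. The leg arrays lay above those of both other tissues. With the block the leg exceeded extraocular muscle (difference -1.11 ± 0.21, adjusted p = 0.00316) and heart (difference -0.82 ± 0.21, adjusted p = 0.0112). The other Atp5g1 probe set differed by -0.29 ± 0.47 (SE) and -0.22 ± 0.47 (SE) and was not called. In dko mice the first probe set was lower in extraocular muscle than in heart by -0.68 ± 0.21 with the block (adjusted p = 0.0354), with overlapping groups. That call held with 3 of 6 arrays left out and was lost without the arrays numbered 3 (adjusted p = 0.095). Atp5g2, which encodes the same ring subunit, was higher in the dko heart than in leg by 0.58 ± 0.13 (SE) with the block (adjusted p = 0.00551). Atp5c1, the rotating central stalk, differed there by 0.43 ± 0.14 (SE) (adjusted p = 0.0353 with the block). Its call held with 1 of 6 arrays left out (adjusted p up to 0.175) and was lost without the arrays numbered 3 (0.238). The Atp5g2 call held with each of 6 arrays left out but was also lost without the arrays numbered 3 (0.0717). Atp5pb, part of the stator stalk, read 2117, 1252 and 380.4 in the dko leg and 531, 699.6 and 262 in the dko heart, a difference of -0.92 ± 0.25 (SE) that was called with the block (adjusted p = 0.0137) and with 4 of 6 arrays left out. In the dko heart 7 of the 14 genes of the complex were below leg, with a median of 0.04.

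Extraocular muscle lay below heart for most of the members called. In mdx mice 1 of 85 was lower (3.3% of all) and 0 were higher (3.76%), and with the block 9 and 0 (9.17% and 8.49% of all). In dko mice 3 were lower (3.43% of all) and 0 higher (4.23%), and with the block 10 and 1 (9.3% and 9.26% of all). The blocked shares of lower members were 10.6% in mdx and 11.8% in dko mice, close to those of all probe sets, and the shares of higher members, 0% and 1.18%, were below them. With the block 6 genes were lower in both genotypes, namely Cox4i1, Cox7a1, Cox7a2l, Ndufb7, Ndufs1 and Sdhb. They were 66.7% of the mdx and 60% of the dko calls. Of the 9 blocked mdx calls 2 held with every array left out in turn and 2 held without the arrays numbered 3. Of the 11 blocked dko calls in either direction 2 and 2 did. Among the 6 genes only Cox7a1 held with every array left out in both genotypes. The count without the block was 0 to 1 in each genotype with any 1 array left out, and 3 to 7 in mdx and 4 to 11 in dko mice with it. Extraocular against leg muscle gave 1 higher and 3 lower in mdx mice with the block (6.54% and 5.91% of all) and 2 to 4 calls with any 1 array left out. The median log2 difference over 70 genes was 0.09 in mdx and 0.21 in dko mice, against -0.03 and 0.01 for all probe sets tested, and 0.19 and 0.14 without the arrays numbered 3. In dko mice 87.1% of the 70 genes were positive, against 51.5% of all genes tested.

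Genes that feed or control the respiratory chain were set beside the members for heart against leg. Over all probe sets 5.04% were called higher and 4.93% lower in mdx mice, and 5.16% and 5.54% in dko mice. With the block these shares were 11.7% and 11.1% in mdx and 12% and 11.5% in dko mice. Of 15 tested genes of the tricarboxylic acid cycle and pyruvate dehydrogenase, 2 were higher in each genotype, and 4 in mdx and 8 in dko mice with the block, and 0 were lower. Idh2, the mitochondrial NADP-dependent isocitrate dehydrogenase, differed by 2.61 in mdx and 2.12 in dko mice, and Suclg2, a subunit of succinyl-CoA ligase, by 1.03 and 1.22. Of 16 carriers and partners, 3 were higher and 1 lower in mdx and 5 higher in dko mice, among them the transhydrogenase Nnt (2.25 and 2.16) and the acylcarnitine carrier Slc25a20 (1.28 and 1.35). Of 7 regulators, 1 was higher in mdx and 2 in dko mice, including the fatty acid receptor Ppara (1.17 and 1.42). The coactivator Ppargc1a was higher by 0.98 and 1.33, called only with the block. Of 11 assembly factors outside the members, 1 was higher in each genotype, Foxred1 in mdx and Lrpprc in dko mice. Median differences in the dko heart were 0.56, 0.50, 0.56 and 0.13 for the 4 lists in this order, beside 0.21 for the 70 members and 0.02 for all tested probe sets. In the genotype comparison in leg muscle Idh2 was the only gene of these lists called with the block, higher in dko by 0.63 (adjusted p = 0.0369), and none was called without it. There 1.2% of all probe sets were called with the block and 0.0563% without it.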

How the data were processed

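Members and gene lists were chosen with earlier results of these data known. The authors deposited 1 table of intensity values for 18 arrays, with 12488 probe sets of which 66 were controls and were left out. The software behind the deposited intensity values was not given in the sources used here. Read from the values, all arrays had nearly the same trimmed mean (1501, without the highest and lowest 2%), as after scaling to a common level. Gene symbols came from the platform annotation; 10 probe sets with several symbols that included a member were left out, and all 101 members matched RefSeq by gene ID.

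Intensities were analysed as log2(intensity + 166.7), so folds of dim probe sets are understated. A probe set was tested if it exceeded its array's 40th percentile on at least 3 of 18 arrays (8888). limma 3.58.1 in R 4.3.3 fitted 6 group means to all arrays with lmFit and eBayes, with Benjamini-Hochberg adjustment over all 8888 and a threshold of 0.05. Where a gene had several probe sets, counts of genes used the one with the highest mean. The scripts were tested on simulated data. Sources do not say whether arrays are separate animals, so p-values measure the spread between these arrays, and their number limits the precision.

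The labels give each group arrays 1, 2 and 3. Deviations from the group mean of same-numbered mdx and dko arrays of a tissue correlated at 0.404 to 0.751 in all 9 pairs, and 18 of 18 arrays were closest to their own number, so the number was also fitted as a block: within each tissue for genotype, and across tissues for tissue comparisons. The pairing comes from these correlations, not from the labels.

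Members named are those called in any comparison (for tissues, up to 5 rises and 5 falls), the paralogue pairs, and the 3 smallest p-values of each genotype comparison without calls; members called with the block alone were added. The RefSeq promoter windows were searched with Python 3.11.15, and figures were drawn with matplotlib 3.10.9.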

Additional observations from a re-analysis of the deposited data

How the results depend on the processing

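No called difference changed sign under the alternatives run. Alternatives were the added constant (50 or 1), no filter or a filter at the 60th percentile, scaling to the 75th percentile, quantile normalization, a fit of only the arrays compared, eBayes with trend and robust settings, the replicate block, and arrays left out. The blocked fits under scaling, quantile normalization and arrays left out were chosen after seeing the data. All genotype comparisons and their differences stayed at 0 members called, with or without the block and with any array left out (0 to 0).

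Counts of member probe sets called changed as follows. For mdx extraocular against leg muscle the count of 1 became 0 with 75th percentile scaling, 0 with only the arrays compared and 4 with the replicate block. For mdx heart against leg it went from 3 to 1 with only the arrays compared and 10 with the block. For mdx extraocular muscle against heart it went from 1 to 0 with quantile normalization, 0 with only the arrays compared and 9 with the block. For dko extraocular against leg muscle it went from 0 to 1 with the block, and that 1 became 0 with 75th percentile scaling or quantile normalization. For dko heart against leg it went from 5 to 3 with 75th percentile scaling, 1 with only the arrays compared and 27 with the block. For dko extraocular muscle against heart it went from 3 to 0 with only the arrays compared and 11 with the block. The cause of these changes was not tested. A fit of only the arrays compared leaves fewer residual degrees of freedom and estimates the spread from fewer arrays.

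With 1 array, or the arrays numbered 3, left out, the 6 counts in this order ran from 0 to 1, 1 to 4, 0 to 2, 0 to 0, 3 to 6 and 0 to 1 without the block, and from 2 to 4, 5 to 9, 3 to 7, 0 to 1, 8 to 24 and 3 to 11 with it. Cox6a1 for mdx heart against leg and Sdha for dko heart against leg were called under all 9 alternatives without the block and with each of 6 arrays left out. No fit of only the arrays compared exists for the average of the 3 tissues, which uses all arrays. With 3 arrays a group the median standard error of a member was 0.35 log2 units, which limits what could be called.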
